A study of Mus musculus with 12 samples.

Results

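The comparison described here asks whether the change of each gene from 0d to 5d of myogenic differentiation was the same in C2C12 cells overexpressing PPARγ as in wild-type cells. C2C12 is a mouse myoblast cell line that leaves the cell cycle and fuses into myotubes when serum is reduced. WT cells are named after PB-IP, a PiggyBac transposon plasmid, in the titles, and PPARγ/+ cells carried the PPARγ coding sequence in that plasmid and were selected with puromycin. How the WT line was treated is not given in the sources used here. RNA taken at the start of differentiation (0d) or on day 5 (5d) was sequenced, which gave 3 libraries per group. All 12 libraries of the series enter the comparison. The series' design text calls the cells inducible and the controls uninduced, whereas the sample titles name the vector, and the titles were followed. Each genotype is 1 line, so the overexpression and any other difference between the lines cannot be told apart, and p-values measure the spread between libraries. The study describes 3 biological replicates per group, and the labels do not say that these came from separate cultures. In bulk RNA, fewer cells of a type and less RNA per cell cannot be told apart either.

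The interaction of a gene was the change from 0d to 5d in PPARγ/+ cells minus the change in WT cells, on the log2(FPKM + 0.1) scale. It equals the difference between PPARγ/+ and WT on 5d minus the difference on 0d, so a positive value (called higher here) means a larger rise or a smaller fall in PPARγ/+ cells. FPKM is the number of sequenced fragments scaled for the length of the gene and the mapped fragments of the library. Of 46983 genes in the table, 18023 had at least 0.1 FPKM in at least 3 libraries and were tested with limma. A gene had a called interaction when its Benjamini-Hochberg adjusted p-value was at most 0.05, and differed on a day, or changed between days, when the adjusted p-value was at most 0.05 and the fold change at least 2. Each interaction was refitted under 21 alternatives, which were another value added to the FPKM, another filter, another scaling, array weights, a term for the replicate number, a fit on recovered fragments and each library left out in turn. A count such as 20 of 20 is given where 1 alternative did not test the gene.

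PPARγ is a nuclear receptor that binds DNA as a heterodimer with a retinoid X receptor and is the main regulator of fat cell formation, switching on genes for fatty acid uptake, lipid droplets and adipokines. Myogenesis is driven by the basic helix-loop-helix factors Myf5 and MyoD in dividing myoblasts and by myogenin at the onset of differentiation, after which sarcomere, ion channel and calcium handling genes rise and genes of DNA replication fall.

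The depth was 15557940 to 22013355 fragments on genes per library. One library stood apart: on the second principal component of the log2 values, which held 11.9% of the variance, WT replicate 3 of 5d had a score of -11.8 against 54.4 and 32.1 for its replicates, while PPARγ/+ scores on that day ran from -29.5 to -23.4. The counts of called genes and the muscle genes are given with and without it. The summed level of 8 myoblast markers (Myod1, Myf5, Des, Cdh15, Chrna1, Itga7, Pax7 and Musk) was 236 to 436 FPKM in WT and 113 to 161 FPKM in PPARγ/+ libraries on 0d, and 366 to 1191 and 476 to 564 FPKM on 5d. The value of 366 FPKM is that of WT replicate 3, and the other 2 WT libraries had 1043 and 1191 FPKM. The median interaction of these markers was 0.46 log2 with that library and 0.01 log2 without it. The 8 adipocyte markers summed to at most 0.130 FPKM in WT libraries, to 2.92 to 5.09 FPKM in PPARγ/+ libraries on 0d and to 13.3 to 67.7 FPKM on 5d, with Lep at 0 in all 12. The 8 fibroblast markers summed to 165 to 267 FPKM in WT and 144 to 170 FPKM in PPARγ/+ libraries on 0d, and on 5d to 519 to 580 and 692 to 850 FPKM, without overlap. The 9 osteoblast and chondrocyte markers overlapped on 0d (19.4 to 22.7 and 19.7 to 23 FPKM) and not on 5d (16.2 to 26.6 and 28.2 to 34.4 FPKM). The 8 smooth muscle markers summed to 635 to 761 and 540 to 738 FPKM on 0d and to 1253 to 1930 and 1078 to 1224 FPKM on 5d. Over the 12 libraries, 6 endothelial markers to 0.0320 to 0.282 FPKM and 6 leukocyte markers to 2.07 to 5.13 FPKM. The sums are carried by the most abundant markers. On 5d the fibroblast marker Dcn averaged 296 FPKM in WT and 479 FPKM in PPARγ/+ cells, and Sox9, of the osteoblast and chondrocyte list, 14.4 and 22.1 FPKM. Pi16, Sp7, Bglap and Acan were lower in PPARγ/+ cells on that day. Des, counted in both the myoblast and smooth muscle sums, averaged 390 and 221 FPKM. Pax7 on both days and Myf5 on 5d were higher in PPARγ/+ cells. The part of these shifts in the results was not tested.

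Pparg itself (chr6:115360951-115490399, plus strand, GRCm38) was higher in PPARγ/+ than in WT cells on both days, and its interaction did not pass the threshold. Its level was 7.56, 5.10 and 6.92 FPKM in WT cells on 0d and 3.12, 3.53 and 4.59 FPKM on 5d. In PPARγ/+ cells it was 44.4, 28 and 46.4 FPKM on 0d and 40.1, 44.1 and 92.7 FPKM on 5d. The groups did not overlap on either day, and replicate 3 of PPARγ/+ on 5d stood above the other libraries. The difference was 2.57 log2 on 0d and 3.85 log2 on 5d, and the interaction was 1.28 ± 0.43 log2 (SE, limma adjusted p = 0.252). A value per gene counts transgene and endogenous fragments together.

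The interaction was called for 137 genes, 0.760% of those tested, of which 105 were higher (0.583%) and 32 lower (0.178%) in PPARγ/+ cells. On 0d, 353 genes differed (1.96%), 103 of them higher and 250 lower in PPARγ/+ cells. On 5d, 199 genes differed (1.10%), 103 higher and 96 lower. In all, 38 genes differed on both days, 37 of them in the same direction. The 0d and 5d differences share no library with each other, but the interaction uses the libraries of both, so the classes that follow describe the called genes and are not independent evidence.

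Split by day, 47 of the 137 genes differed on 0d only, 30 on 5d only, 6 on both days and 54 by less than 2-fold or above the p-value threshold on both. By adjusted p-value alone, without the fold threshold, the numbers were 83, 37, 13 and 4. The 0d class leaned one way, since 43 of its 47 genes were lower in PPARγ/+ cells on 0d, and among the 37 of these with no group at or under 3 fragments in every library the median difference was -1.58 log2 on 0d and 0.27 log2 on 5d. In the 5d class 18 genes were higher and 12 lower in PPARγ/+ cells. The median interaction over the 15104 tested genes with no group at this floor was -0.01 log2.

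**Figure D1:**
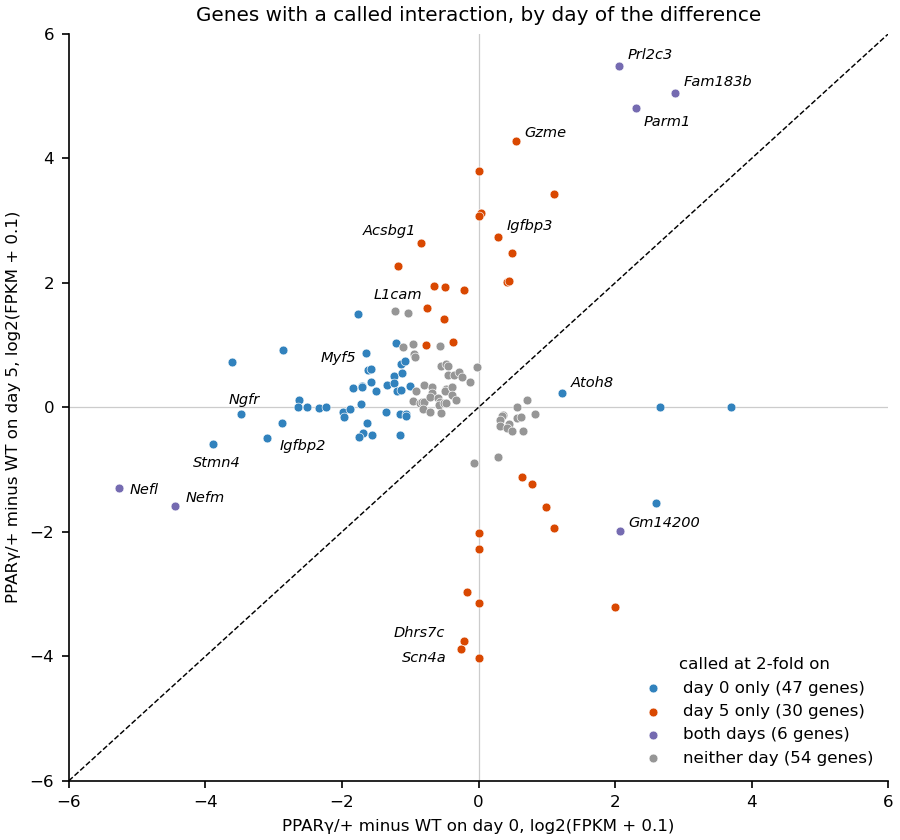
Difference between PPARγ/+ and WT cells on 0d (horizontal) and 5d (vertical), in log2(FPKM + 0.1), for the 137 genes with a called interaction, 1 point per gene, coloured by the day on which the gene differed. Points above the dashed line of equal differences have a positive interaction (105 genes) and points below it a negative one (32 genes), and most of the 47 genes of the 0d class lie to the left, near 0 on the vertical axis.

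Most differences of either day came without a called interaction. Of the 315 genes that differed on 0d and not on 5d, 268 had none, and 233 of these had a 5d difference of the same sign. Of the 161 genes that differed on 5d and not on 0d, 131 had none, and 95 of these had a 0d difference of the same sign. Passing the threshold on 1 day only thus came without a called interaction in most cases. A missing call does not show equal changes, since the interaction has a larger standard error than a day difference (0.43 against 0.31 for Pparg). The share of all genes with the same sign on both days was not counted.

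Genes lower in PPARγ/+ cells on 0d fell into those that WT cells lost by 5d and those that PPARγ/+ cells gained. Of the 43 genes, 19 fell at least 2-fold in WT cells only, 16 rose at least 2-fold in PPARγ/+ cells only, 3 changed in both lines in the same direction and 5 passed the thresholds in neither line. Over all genes, 16.0% changed from 0d to 5d in WT cells (8.82% higher, 7.19% lower) and 14.1% in PPARγ/+ cells (8.48% higher, 5.59% lower). The WT and PPARγ/+ libraries of all 43 genes did not overlap on 0d, against 26.8% of all genes tested, as the class requires a difference on that day.

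Igfbp2, which encodes a secreted protein that binds insulin-like growth factors (chr1:72824503-72852474, plus strand), belonged to the first kind. It stood at 85.0, 131 and 73.0 FPKM in WT cells on 0d and 29.4, 30.0 and 30.2 FPKM on 5d. PPARγ/+ cells had 7.28, 13.6 and 12.7 FPKM on 0d and 21.4, 25.0 and 18 FPKM on 5d. The WT level fell past 2-fold, the PPARγ/+ change of 0.97 log2 stayed just below it, and the lines still did not overlap on 5d. The difference went from -3.10 log2 on 0d to -0.49 log2 on 5d (interaction 2.61 ± 0.35, adjusted p = 0.011), and the call held in 21 of 21 alternatives.

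Myf5, the earliest of the myogenic factors (chr10:107482908-107486134, minus strand), fell in WT cells only. WT cells had 11.3, 13.2 and 11.6 FPKM on 0d and 5.96, 3.53 and 3.79 FPKM on 5d. PPARγ/+ cells had 3.66, 4.25 and 3.96 FPKM on 0d and 5.58, 6.27 and 8.47 FPKM on 5d. The WT libraries were all above the PPARγ/+ libraries on 0d, and on 5d WT replicate 1 lay within the PPARγ/+ range. The WT change was -1.46 log2 and the PPARγ/+ change 0.74 log2, the latter below 2-fold (interaction 2.20 ± 0.27, adjusted p = 0.00844, call held in 21 of 21 alternatives). Myod1 (0.30 ± 0.56, adjusted p = 0.877) and Myog (0.50 ± 1.10, adjusted p = 0.900) had no called interaction, and their standard errors were larger. Without WT replicate 3 of 5d the values were -0.01 and 0.03 (adjusted p = 0.995 for both), and over all alternatives Myod1 ran from -0.15 to 0.75 and Myog from -0.47 to 1.19, so neither has a settled direction. Msc, which encodes musculin, a basic helix-loop-helix repressor related to the myogenic factors, had an interaction of 2.55 ± 0.50 (adjusted p = 0.0498): it went from 2.79, 2.16 and 1.26 to 0.262, 0.244 and 0.103 FPKM in WT cells, against 0.708, 0.678 and 1.55 and then 0.663, 0.712 and 0.867 FPKM in PPARγ/+ cells. The Msc call held in 5 of 21 alternatives, with adjusted p-values of 0.0282 to 0.143, and 539 exonic bases of Msc overlap Gm9947 on the other strand.

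Ngfr and Stmn4, both known from neurons, were also lost by WT cells. Ngfr, the p75 neurotrophin receptor (chr11:95568818-95587735, minus strand), was measured at 0.913, 1.09 and 1.04 FPKM in WT cells on 0d and at 0.0114, 0 and 0.0127 FPKM on 5d. No fragment of Ngfr was counted in any of the 6 PPARγ/+ libraries, so WT cells on 0d were at least 22.6-fold higher, taking 3 fragments per library as the floor. Its interaction was called in 20 of 20 alternatives (adjusted p = 0.00126 with all 12 libraries), though another added value gives another fitted size. With PPARγ/+ cells at 0 on both days, the interaction is the WT fall alone, and a fall in PPARγ/+ cells could not have been measured. The stable Ngfr call therefore does not show that PPARγ/+ cells would have changed differently from a measurable level. Stmn4, a stathmin family regulator of microtubules, fell from 4.90, 3.68 and 2.86 to 0.738, 1.19 and 0.321 FPKM in WT cells and went from 0.150, 0.140 and 0.191 to 0.428, 0.388 and 0.421 FPKM in PPARγ/+ cells (interaction 3.30 ± 0.48, adjusted p = 0.0143, call held in 21 of 21 alternatives).

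Hmga1, an architectural chromatin protein of dividing cells, and its near-identical copy Hmga1b fell in both lines, from a lower start in PPARγ/+ cells. Hmga1 stood at 63.5, 65.2 and 65.2 FPKM in WT cells on 0d against 21.8, 16.4 and 19.5 FPKM in PPARγ/+ cells, and on 5d at 6.77, 5.57 and 5.69 against 3.68, 5.05 and 4.25 FPKM. The change was -3.41 log2 in WT cells and -2.13 log2 in PPARγ/+ cells. Hmga1b gave the same picture (interaction 1.29 against 1.28), and as the copies can share reads they count as 1 observation. The same holds for Gsta1 and Gsta2, neighbouring and similar glutathione S-transferase genes on chr9, with interactions of 3.27 and 3.78. These genes, other than Gsta2, were singled out after their values were seen.

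The second kind, low in PPARγ/+ cells on 0d and risen there by 5d, included secreted and matrix-associated proteins. Spp1, which encodes the integrin-binding protein osteopontin (chr5:104435118-104441050, plus strand), was measured in WT cells at 717, 1001 and 993 FPKM on 0d and 902, 783 and 788 FPKM on 5d. In PPARγ/+ cells it rose from 440, 333 and 364 to 944, 1016 and 1313 FPKM. WT cells hardly moved while PPARγ/+ cells went from below the WT range of 0d to above the WT range of 5d. The interaction was 1.64 ± 0.24 (adjusted p = 0.0154), and only leaving out PPARγ/+ replicate 2 of 0d took the call away (adjusted p = 0.0525). Gm42793, called as well, shares 309 exonic bases with Spp1 on the same strand and is not separate evidence.

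Ccn2, a matrix-associated protein known as connective tissue growth factor, was also low in PPARγ/+ cells on 0d. It went from 32.5, 38.6 and 24.3 to 47.6, 37.0 and 44.5 FPKM in WT cells and from 14.1, 11.8 and 17.5 to 52.9, 69.7 and 67.7 FPKM in PPARγ/+ cells (interaction 1.68 ± 0.27, adjusted p = 0.018, call held in 16 of 21 alternatives with adjusted p-values up to 0.067). Lrrc17, a secreted leucine-rich repeat protein picked after its values were seen (chr5:21543559-21575904, plus strand), rose from 2.09, 2.63 and 3.05 to 17.2, 16.1 and 16.1 FPKM in PPARγ/+ cells, against 8.53, 12.8 and 10.4 and then 18, 19.8 and 14.7 FPKM in WT cells (interaction 1.91 ± 0.23, adjusted p = 0.00844). Its PPARγ/+ libraries lay below WT on 0d and inside the WT range on 5d. Ackr3, an atypical receptor that scavenges the chemokine CXCL12, rose from 1.87, 1.95 and 2.86 to 5.98, 5.83 and 6.12 FPKM in PPARγ/+ cells and stood at 12.1, 16.5 and 7.61 and then 8.27, 6.42 and 4.12 FPKM in WT cells (interaction 2.33 ± 0.41, adjusted p = 0.0299, held in 12 of 21 alternatives, highest adjusted p = 0.092).

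Of the 4 genes of the 0d class that were higher in PPARγ/+ cells on that day, 3 are small RNA genes with few fragments and the fourth is Atoh8, a basic helix-loop-helix factor. Atoh8 was measured at 29.6, 25.9 and 25.5 FPKM in PPARγ/+ cells on 0d against 11.5, 11.9 and 11 FPKM in WT cells, and at 15.2, 16.4 and 18.1 against 11.2, 14.5 and 17.1 FPKM on 5d. The libraries were apart on 0d and overlapped on 5d (interaction -0.997 ± 0.18, adjusted p = 0.0385, held in 9 of 21 alternatives, highest adjusted p = 0.110).

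**Figure D2:**
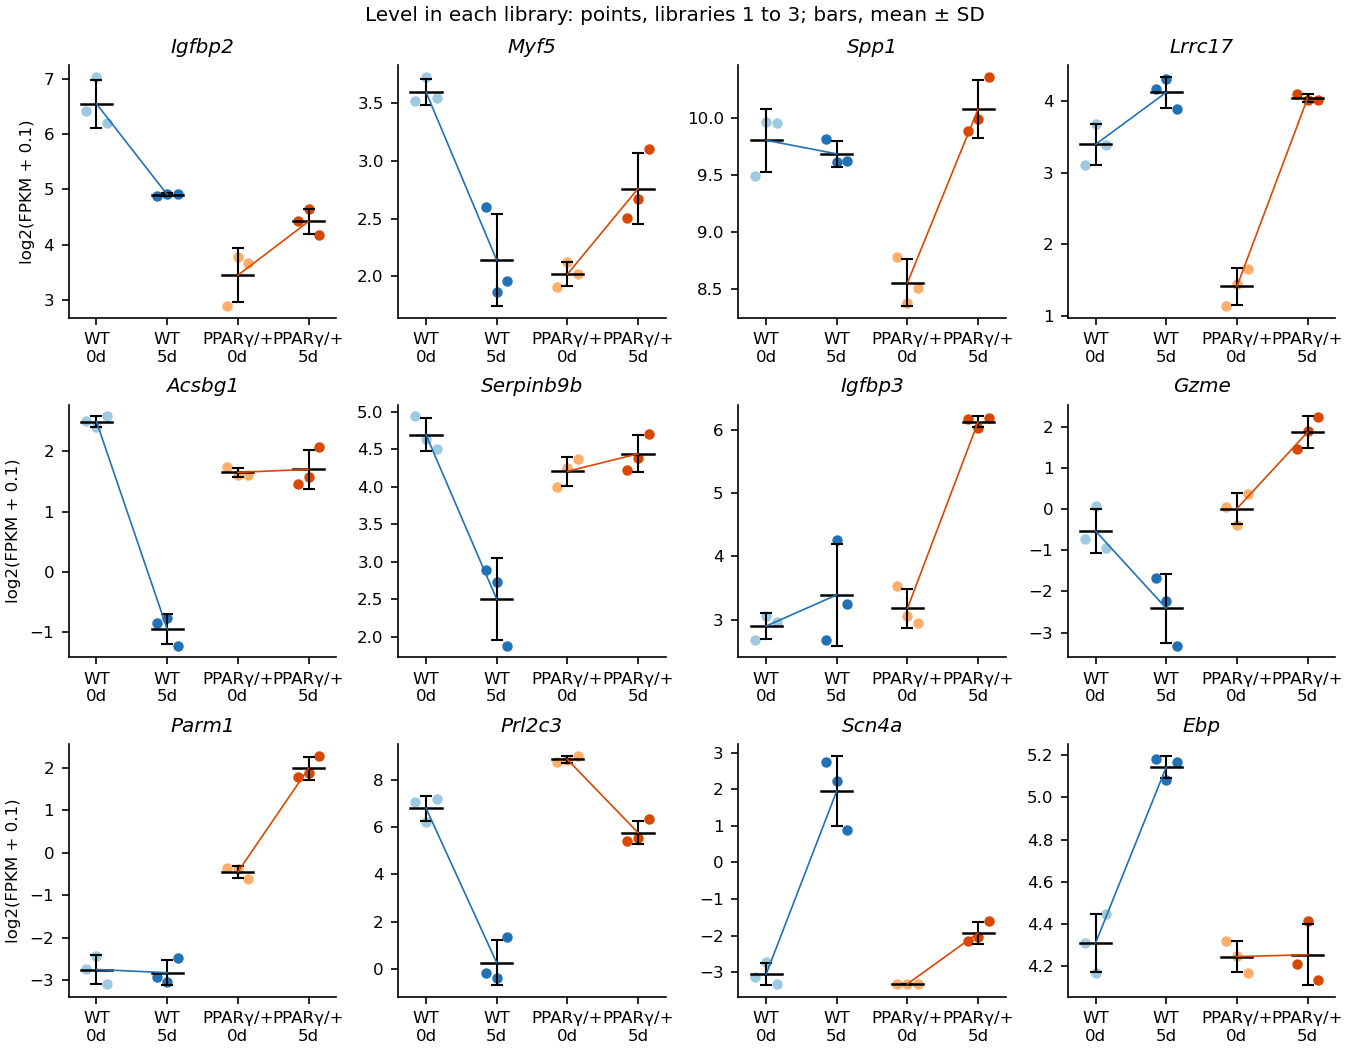
Level of 12 genes in every library, as log2(FPKM + 0.1), with 1 panel and scale per gene and the 4 groups along the horizontal axis; points are libraries, black bars the mean ± SD of 3, and coloured lines join the days of a line. Igfbp2 and Myf5 fell in WT cells, Spp1 and Lrrc17 rose in PPARγ/+ cells, Acsbg1 and Serpinb9b fell in WT cells only, Igfbp3, Gzme and Parm1 rose in PPARγ/+ cells, Scn4a rose in both lines and further in WT cells, Prl2c3 fell in both and further in WT cells, and Ebp separates on 5d only.

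Among genes that differed on 5d only, the higher ones were again of 2 kinds: 9 of 18 fell at least 2-fold in WT cells only and 7 rose at least 2-fold in PPARγ/+ cells only. The remaining 2 were Vit, which rose in both from few fragments, and Gzme, which was called in opposite directions. Acsbg1, an acyl-CoA synthetase that activates long-chain fatty acids (chr9:54604877-54661870, minus strand), had the lowest adjusted p-value of the genes named here. It stood at 5.52, 5.16 and 5.86 FPKM in WT cells on 0d and 0.458, 0.489 and 0.329 FPKM on 5d. In PPARγ/+ cells it was 3.22, 2.96 and 2.94 FPKM on 0d and 2.64, 2.88 and 4.09 FPKM on 5d. WT cells lost most of the transcript and PPARγ/+ cells kept theirs, so that the order of the lines turned between the days. The difference was -0.84 log2 on 0d and 2.64 log2 on 5d (interaction 3.48 ± 0.24, adjusted p = 0.000258, call held in 21 of 21 alternatives).

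Of the 9 that fell in WT cells only, Serpinb9b, Mmp10 and Tmprss11f encode proteases or protease inhibitors. Serpinb9b, a member of the serpin clade that inhibits granzymes, fell from 30.6, 24.7 and 22.6 to 7.33, 6.56 and 3.59 FPKM in WT cells and stood at 15.9, 18.9 and 20.6 and then 18.6, 20.7 and 26.0 FPKM in PPARγ/+ cells (interaction 2.42 ± 0.33, adjusted p = 0.011, held in 21 of 21 alternatives). Areg, which encodes amphiregulin, a ligand of the EGF receptor, and was picked after its values were seen, fell from 5.22, 7.21 and 5.87 to 0.711, 0.725 and 0.542 FPKM in WT cells and went from 3.91, 2.84 and 4.03 to 1.71, 2.26 and 2.70 FPKM in PPARγ/+ cells (interaction 2.35 ± 0.28, adjusted p = 0.00844). Both lines started within 2-fold of each other and were apart in every library on 5d. Gzme, a granzyme serine protease, was measured on 5d at 0.213, 0.112 and 0 FPKM in WT cells and 2.66, 3.63 and 4.61 FPKM in PPARγ/+ cells. Its interaction was 3.73 ± 0.58 (limma adjusted p = 0.018), and the call held in 16 of 21 alternatives, with adjusted p-values up to 0.122. WT libraries had at most 22 fragments of Gzme on 0d and at most 5 on 5d, and its fitted size ran from 1.79 to 5.16 over the alternatives.

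Of the genes that rose in PPARγ/+ cells only, Igfbp3, the main carrier of insulin-like growth factors in serum (chr11:7206086-7213923, minus strand), was the most abundant of those named. It was measured at 6.26, 8.25 and 7.67 FPKM in WT and 11.5, 8.20 and 7.62 FPKM in PPARγ/+ cells on 0d, with overlapping groups. On 5d WT cells had 6.26, 19.1 and 9.36 FPKM and PPARγ/+ cells 72.1, 65.2 and 72.9 FPKM, with no overlap. The interaction was 2.46 ± 0.44 (adjusted p = 0.0337), and the call held in 11 of 21 alternatives, with adjusted p-values of 0.00349 to 0.103. Igfbp2 and Igfbp3 both had positive interactions, Igfbp2 with a difference on 0d and Igfbp3 with one on 5d. Cyp4b1, a fatty acid hydroxylase of the cytochrome P450 family, rose from 0.0545, 0.0510 and 0.102 to 0.513, 0.742 and 0.453 FPKM in PPARγ/+ cells and was at most 0.0389 FPKM in any WT library (interaction 2 ± 0.35, adjusted p = 0.031, held in 8 of 20 alternatives, highest adjusted p = 0.174). Both WT groups of Cyp4b1 were at or under 3 fragments, and its fitted interaction ran from 0.55 to 3.23 over the alternatives.

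The 12 genes lower on 5d were mainly genes that WT cells switched on: 7 rose at least 2-fold in WT cells only. Scn4a, the voltage-gated sodium channel of skeletal muscle (chr11:106318592-106353288, minus strand), was at 0.0146, 0.0507 and 0 FPKM in WT cells on 0d and 6.64, 4.56 and 1.75 FPKM on 5d. In PPARγ/+ cells it was at 0 in all 3 libraries on 0d and at 0.123, 0.145 and 0.229 FPKM on 5d, which is at least 7.24-fold higher than the floor of 0d. Every WT library on 5d lay above every PPARγ/+ library, with WT replicate 3 the lowest of its group. The interaction was -3.62 ± 0.57 (adjusted p = 0.018), and the call held in 13 of 21 alternatives, with adjusted p-values up to 0.803, while without WT replicate 3 of 5d it was -4.15 (adjusted p = 0.00101).

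Dhrs7c, a dehydrogenase of the muscle sarcoplasmic reticulum, showed the same order, with 2.68, 1.33 and 0.678 FPKM in WT cells on 5d and 0, 0.0248 and 0 FPKM in PPARγ/+ cells (interaction adjusted p = 0.0168, held in 15 of 20 alternatives). Isx, a homeobox factor known from the intestine, had 2.82, 2.08 and 0.563 FPKM in WT and 0.0807, 0.0778 and 0.0900 FPKM in PPARγ/+ cells on 5d, but its call held in 2 of 20 alternatives only. Col13a1, a transmembrane collagen of the neuromuscular junction, had 0.401, 0.439 and 0.200 FPKM in WT cells and at most 0.0105 FPKM in PPARγ/+ cells on 5d, and was at 0 in all 6 libraries on 0d (held in 5 of 20 alternatives). WT replicate 3 was the lowest WT library on 5d for all 4 of these genes. With at least 1 group at the floor in each, another added value gives other fitted sizes.

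There were 6 genes that differed on both days, of which Gm14200 rests on few fragments. Parm1, a mucin-like membrane protein (chr5:91517615-91626894, plus strand), was near absent from WT cells on both days, at most 0.0860 FPKM, and was measured in PPARγ/+ cells at 0.679, 0.674 and 0.551 FPKM on 0d and 3.35, 3.61 and 4.78 FPKM on 5d (interaction 2.51 ± 0.34, adjusted p = 0.011, held in 19 of 21 alternatives). Fam183b, picked after its values were seen, had no fragment in any of the 6 WT libraries and stood at 0.434, 0.541 and 1.05 and then 3.06, 3.03 and 3.61 FPKM in PPARγ/+ cells, at least 2.37-fold higher on 0d and at least 11.4-fold higher on 5d. The Fam183b interaction had an adjusted p of 0.0263 and was called in 9 of 21 alternatives, and with WT at 0 its fitted size depends on the added value.

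Prl2c3, a proliferin of the prolactin family, fell in both lines but from 131, 72.9 and 144 to 0.785, 0.671 and 2.48 FPKM in WT cells and from 425, 449 and 514 to 42.7, 46.2 and 79.8 FPKM in PPARγ/+ cells (interaction 3.43 ± 0.59, adjusted p = 0.028). PPARγ/+ libraries were above WT libraries on both days, and the distance grew. The Prl2c genes are near-identical copies that can share reads, and the call held in 11 of 21 alternatives, with a highest adjusted p-value of 0.0879.

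Nefl and Nefm, the light and medium neurofilament subunits, were lower in PPARγ/+ cells on both days. Nefl (chr14:68083863-68089095, plus strand) was measured in WT cells at 8.27, 8.74 and 5.47 FPKM on 0d and 0.186, 0.107 and 0.182 FPKM on 5d. In PPARγ/+ cells it was at 0.0606, 0.0794 and 0.149 FPKM on 0d and 0, 0.0138 and 0 FPKM on 5d. PPARγ/+ cells on 0d were thus already near the level that WT cells reached on 5d. Nefm went from 6.30, 6.69 and 4.94 to 0.319, 0.323 and 0.167 FPKM in WT cells and from 0.184, 0.0796 and 0.317 to 0.0250, 0.0161 and 0.0186 FPKM in PPARγ/+ cells. The interactions were 3.98 ± 0.35 (adjusted p = 0.0013) and 2.85 ± 0.43 (adjusted p = 0.0154), with the PPARγ/+ group of 5d at or under 3 fragments for both genes. Both calls were lost with 0.01 added to the FPKM and in the fit on recovered fragments, with adjusted p-values of up to 0.417 and 0.456, and the genes share 1108 exonic bases on opposite strands.

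The 54 genes that differed on neither day by these thresholds had higher expression and smaller interactions, the latter in part because of the 2-fold limit. Their interactions lay between 0.446 and 2.77 log2 in size, and 37 of them had an adjusted p-value of at most 0.05 on 0d alone, 11 on 5d alone, 2 on both days and 4 on neither. Fabp5, a fatty acid binding protein, fell from 11.8, 12 and 14.8 to 0.936, 1 and 0.960 FPKM in WT cells and from 9.16, 5.34 and 6.05 to 1.69, 1.62 and 2.02 FPKM in PPARγ/+ cells. The lines changed places between the days without overlap on either, and the interaction was 1.74 ± 0.25 (adjusted p = 0.0136, held in 21 of 21 alternatives). L1cam, a neural cell adhesion molecule, went from 6.79, 5.61 and 4.97 to 3.03, 2.54 and 0.896 FPKM in WT cells and from 2.11, 2.21 and 2.92 to 5.32, 4.81 and 7.49 FPKM in PPARγ/+ cells, again with a change of order and no overlap. Its call held in 9 of 21 alternatives, with adjusted p-values of 0.0033 to 0.104.

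Ebp, a sterol isomerase of cholesterol synthesis, was among the 15 lower genes of this class. It went in WT cells from 19.7, 17.9 and 21.7 to 36.2, 33.8 and 35.8 FPKM and stood in PPARγ/+ cells at 19.8, 18.9 and 17.9 FPKM on 0d and 18.4, 21.2 and 17.5 FPKM on 5d. The lines overlapped on 0d and were apart on 5d, by -0.89 log2 (interaction -0.82 ± 0.13, adjusted p = 0.0168, held in 17 of 21 alternatives). Adssl1, the muscle form of adenylosuccinate synthase in purine nucleotide metabolism, went in WT cells from 27.7, 17.7 and 22 to 44.0, 43.3 and 34.4 FPKM and in PPARγ/+ cells from 26.7, 28.8 and 25.7 to 23.6, 24.5 and 21.7 FPKM (interaction -1.08 ± 0.20, adjusted p = 0.0435, held in 9 of 21 alternatives). Palld, the actin-associated protein palladin, went from 11, 11.4 and 12.2 to 21.7, 22.1 and 16.5 FPKM in WT cells and stayed at 14.9 to 17.5 FPKM in the 6 PPARγ/+ libraries (-0.86 ± 0.15, adjusted p = 0.029, held in 8 of 21 alternatives).

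Promoter sequence was searched for 5 short motifs in the 250 bases before the start of each gene, in the RefSeq promoter windows of GRCm38.p6, which held 91 of the 137 genes by symbol. The motifs were the PPAR response element AGGTCANAGGTCA (a direct repeat with 1 base between), its half-site AGGTCA, the AP-1 site TGACTCA, the cyclic AMP response element TGACGTCA and the E-box CAGCTG, on both strands (TGAGTCA is the AP-1 site read on the other strand). The motifs were chosen after the called genes were known. The repeat was in the window of 0 of the 91 genes, and in 0.0407% of all genes with a window. A motif this rare is unlikely to appear among 91 genes, so the count of 0 says nothing about them. The half-site was found in 15 genes (16.5%, against 15.8% of all genes with a window) and the E-box in 19 (20.9% against 14.7%). The AP-1 site was found in 13 (14.3% against 5.16%) and the cyclic AMP element in 7 (7.69% against 1.77%, or 2.90% of the 11179 matched genes that were tested). The half-site lies within the repeat, and a gene counts once for each motif however many windows it has. A match describes letters only and is not evidence of binding.

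The windows of 4 genes with an AP-1 site or a cyclic AMP element and no annotated exon are shown, 2 of genes that differed on 5d only (Mmp10, a matrix metallopeptidase, and Areg) and 2 of genes that differed on 0d only (Csrnp1, a nuclear protein, and Flt1, a VEGF receptor), with the motif in capitals and in the direction of transcription. Mmp10 is at chr9:7502092-7502341 (plus strand), Areg at chr5:91139349-91139598 (plus strand), Csrnp1 at chr9:119983024-119983273 (minus strand) and Flt1 at chr5:147726012-147726261 (minus strand).
Mmp10: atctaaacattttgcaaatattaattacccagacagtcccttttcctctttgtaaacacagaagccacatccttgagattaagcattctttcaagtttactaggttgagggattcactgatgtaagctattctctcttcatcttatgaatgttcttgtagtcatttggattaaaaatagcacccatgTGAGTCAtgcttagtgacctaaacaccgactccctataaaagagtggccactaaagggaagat
Areg: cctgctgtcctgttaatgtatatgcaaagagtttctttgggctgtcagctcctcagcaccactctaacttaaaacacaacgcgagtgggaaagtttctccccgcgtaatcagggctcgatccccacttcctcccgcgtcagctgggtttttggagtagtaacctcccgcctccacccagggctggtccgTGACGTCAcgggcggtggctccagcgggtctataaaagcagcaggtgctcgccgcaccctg
Csrnp1: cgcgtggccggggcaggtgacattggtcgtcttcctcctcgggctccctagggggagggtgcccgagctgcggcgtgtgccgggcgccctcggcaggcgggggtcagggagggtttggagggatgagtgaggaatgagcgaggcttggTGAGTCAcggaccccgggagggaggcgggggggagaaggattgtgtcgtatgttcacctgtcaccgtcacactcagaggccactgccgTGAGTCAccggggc
Flt1: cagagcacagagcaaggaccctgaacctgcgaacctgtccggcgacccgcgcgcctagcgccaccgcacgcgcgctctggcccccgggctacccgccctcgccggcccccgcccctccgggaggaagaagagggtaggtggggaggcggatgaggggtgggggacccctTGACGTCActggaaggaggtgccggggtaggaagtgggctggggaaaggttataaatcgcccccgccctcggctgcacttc

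The interactions of these genes were 3.45 for Mmp10, 2.35 for Areg, 0.96 for Csrnp1 and 1.77 for Flt1, all positive, and Areg, Csrnp1 and Flt1 were picked for their windows. The call held in 21 of 21 alternatives for Areg, in 4 of 21 for Csrnp1 and in 4 of 20 for Flt1. Their sites lie at -63 to -57 (Mmp10), -61 to -54 (Areg), -102 to -96 and -14 to -8 (Csrnp1) and -81 to -74 (Flt1) from the start. Mmp10 was measured at 0.869, 1.38 and 0.427 and then 0.205, 0.0904 and 0.0255 FPKM in WT cells and at 0.262, 0.201 and 0.506 and then 0.533, 1.38 and 0.782 FPKM in PPARγ/+ cells, and its call held in 4 of 20 alternatives (adjusted p = 0.0447 with all libraries, highest 0.124).

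Members of 21 gene lists were counted, against 0.583% of all genes called higher and 0.178% called lower. The lists were written with earlier results of these data known, so the counts describe them and are not independent evidence. The list of neural adhesion, guidance and cytoskeleton genes had 5 called higher and 0 lower of 53 tested (Nefl, Stmn4, Nefm, L1cam and Plxnd1). Of these, L1cam and Stmn4 were singled out by the study on the same libraries, and Nefl and Nefm share exonic bases. On 0d, 13 of the 53 were lower and 1 higher in PPARγ/+ cells, against 1.39% of all genes lower, and on 5d 2 were lower. Members lower on 0d without a called interaction included Gap43, a growth cone protein (0d -3.27, 5d -0.66, interaction 2.61, adjusted p = 0.137), Tubb3, the neuronal beta tubulin (0d -2.20, 5d -0.18, interaction 2.02, adjusted p = 0.0798), and Robo1, a guidance receptor (0d -2.12, 5d -0.01, interaction 2.10, adjusted p = 0.113). These 3 were picked after their values were seen.

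Serine proteases and serpins had 4 members called higher and 0 lower of 31, among them Gzme, Serpinb2 and Serpinb9b. Myogenic factors and cofactors had 2 higher of 39 (Myf5 and Msc), PPAR target genes 2 higher of 58 (Cyp4b1 and Fabp5), DNA replication 2 higher of 51 (Mcm4 and Dut), matrix glycoproteins 2 higher of 52 (Spp1 and Ccn2), IGF, TGF-beta and BMP signaling 2 higher of 47 (Igfbp2 and Igfbp3) and p53 targets 2 higher of 37, Igfbp3 among them. Metallopeptidases had 1 higher of 45 (Mmp10) and chemokines and cytokines 1 higher of 32 (Ackr3). Collagen chains (Col13a1, of 35), sarcomere genes (Scn4a, of 70) and cholesterol synthesis (Ebp, of 38) had 1 lower each. Of the remaining lists, 8 had 0 members called by limma. At an unadjusted p of at most 0.05 they had 6 of 31 (myoblast fusion), 4 of 13 (acetylcholine receptor), 2 of 17 (PPAR receptors), 0 of 64 (mitosis), 5 of 56 (interferon response), 12 of 42 (Wnt), 4 of 19 (Notch) and 4 of 17 (epidermal barrier), against 2164 of all 18023 genes (12%).

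The study singled out 11 genes, chosen on these same libraries, so their count is not independent evidence. It chose them for opposite changes from 0d to 5d, each called within a line by DESeq2 p-value and a 2-fold change. It also reported qRT-PCR for most of them, Tenm4 and Car12 included, which was not used here. A missing interaction call is thus the outcome of a different test. The interaction was called higher for 8 of the 11, L1cam, Igfbp2, Creb5, Gzme, Stmn4, Clca3b, Mmp10 and Slc14a1. Creb5, a transcription factor of the CREB family, had an interaction of 2.03 (adjusted p = 0.011, held in 20 of 20 alternatives). Clca3b had one of 2.25 (adjusted p = 0.039, held in 8 of 20), and Slc14a1, a urea transporter, one of 2.62 (adjusted p = 0.0259, held in 10 of 20). Clca3b had at most 27 fragments in a library, and Slc14a1 at most 1 in PPARγ/+ cells on 0d. Their fitted sizes ran over the alternatives from 0.46 to 4.34 and from 0.69 to 5.98. The 2 genes tested and not called were Tenm4, a teneurin (1.32 ± 0.46, adjusted p = 0.268), and Car12, a carbonic anhydrase (-1.56 ± 0.78, adjusted p = 0.470, and -2.27 with adjusted p = 0.0537 without WT replicate 3 of 5d). Tenm4 was at most 0.443 FPKM in a library, a level at which the fitted size depends on the added value. Over the 20 alternatives it ran from 0.27 to 3.35 for Tenm4 and from -3.06 to -0.42 for Car12, with neither called. Fndc9 was too low to be tested.

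PPAR target genes were also counted on each day. On 0d 6 of 58 were higher in PPARγ/+ cells and on 5d 12, with 0 lower on either, against 0.571% of all genes higher on each day. The median interaction of the list was 0.05 log2 over all 58 and -0.02 log2 over the 46 with no group at the floor. Adipoq, the adipokine adiponectin, was at most 0.0313 FPKM in WT libraries and stood at 2.46, 1.06 and 1.96 and then 8.03, 12.7 and 40.5 FPKM in PPARγ/+ cells. Its interaction was 3.28 ± 0.70 (adjusted p = 0.0654) and passed the threshold without PPARγ/+ replicate 1 of 5d (adjusted p = 0.0438) and with array weights, over a range of 0.0224 to 0.682. Fabp4, the adipocyte fatty acid binding protein, rose from 1.99, 1.59 and 2 to 4.13, 4.86 and 10.3 FPKM in PPARγ/+ cells (interaction adjusted p = 0.106), and Lpl, lipoprotein lipase, had an interaction of 2.14 (adjusted p = 0.0788). Replicate 3 of PPARγ/+ on 5d was the highest library for Pparg, Adipoq, Fabp4, Plin1 and Cfd.

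**Figure D3:**
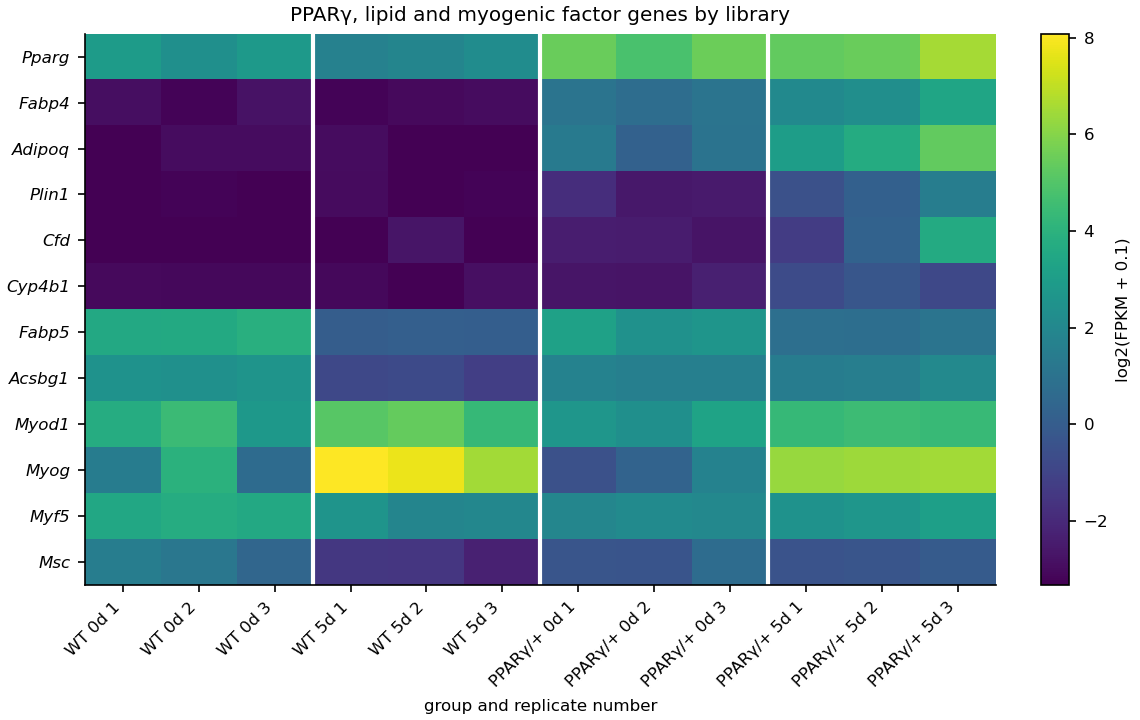
Level of Pparg, 7 lipid genes and 4 myogenic factor genes (rows) in each of the 12 libraries (columns, by group and replicate), coloured by log2(FPKM + 0.1). Fabp4, Adipoq and Plin1 are near 0 in WT libraries and highest in replicate 3 of PPARγ/+ on 5d, and Myog is lower in replicate 3 of WT on 5d (90.0 FPKM) than in replicates 1 and 2.

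Of 51 DNA replication genes, 2 had a called interaction, Mcm4 and Dut, a dUTPase, whose calls held in 5 and 6 of 21 alternatives. In all 44 values were positive and 7 negative, with a median of 0.35 log2, against 48.8% positive of all genes. Their median change was -2.03 log2 in WT and -1.49 log2 in PPARγ/+ cells, and the median difference was -0.36 log2 on 0d and 0.03 log2 on 5d. Mcm4, a subunit of the replicative helicase, fell from 32.8, 38.3 and 43.4 to 8.16, 8.04 and 9.11 FPKM in WT cells and from 28.1, 19.7 and 23.7 to 9.42, 10.1 and 10.3 FPKM in PPARγ/+ cells (interaction 0.91 ± 0.18, adjusted p = 0.0498, highest adjusted p = 0.144). The mitosis list had 23 of 64 members positive and a median of -0.09 log2, with 64 of 64 fallen in each line.

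Muscle genes depended on replicate 3 of WT on 5d. With all 12 libraries, sarcomere and contraction genes had 1 of 70 called lower and a median interaction of -0.52 log2 (-0.35 log2 over the 56 with no group at the floor). On 0d 4 of the 70 were lower in PPARγ/+ cells and on 5d 6, with 0 higher on either, against 1.39% and 0.533% of all genes lower on these days. Without that library 19 of the 70 had a lower interaction, against 274 of all 18023 genes (1.52%), and the median was -1.13 log2. Tcap, the titin cap protein of the Z-disc, then had an interaction of -5.04 (adjusted p = 0.00602, against 0.125 with all libraries), Myh4, a fast myosin heavy chain, -4.45 (0.00418 against 0.0644), and Casq1, the calcium buffer of the sarcoplasmic reticulum, -3.78 (0.00277 against 0.134). These 3 were picked after their values were seen.

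Over all genes, leaving out this library raised the called interactions from 137 to 527, with 253 higher and 274 lower, and all 137 genes were among them. The day-5 differences rose from 199 to 796 genes, 508 of them lower in PPARγ/+ cells, and the 5d class from 30 to 199 genes, 157 of them lower. The excess of higher over lower interactions (105 against 32) was therefore seen with the library and not without it. Without any other single library, between 42 and 153 interactions were called, of which 41 to 103 were among the 137, and leaving out PPARγ/+ replicate 3 of 5d gave the fewest.

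**Figure D4:**
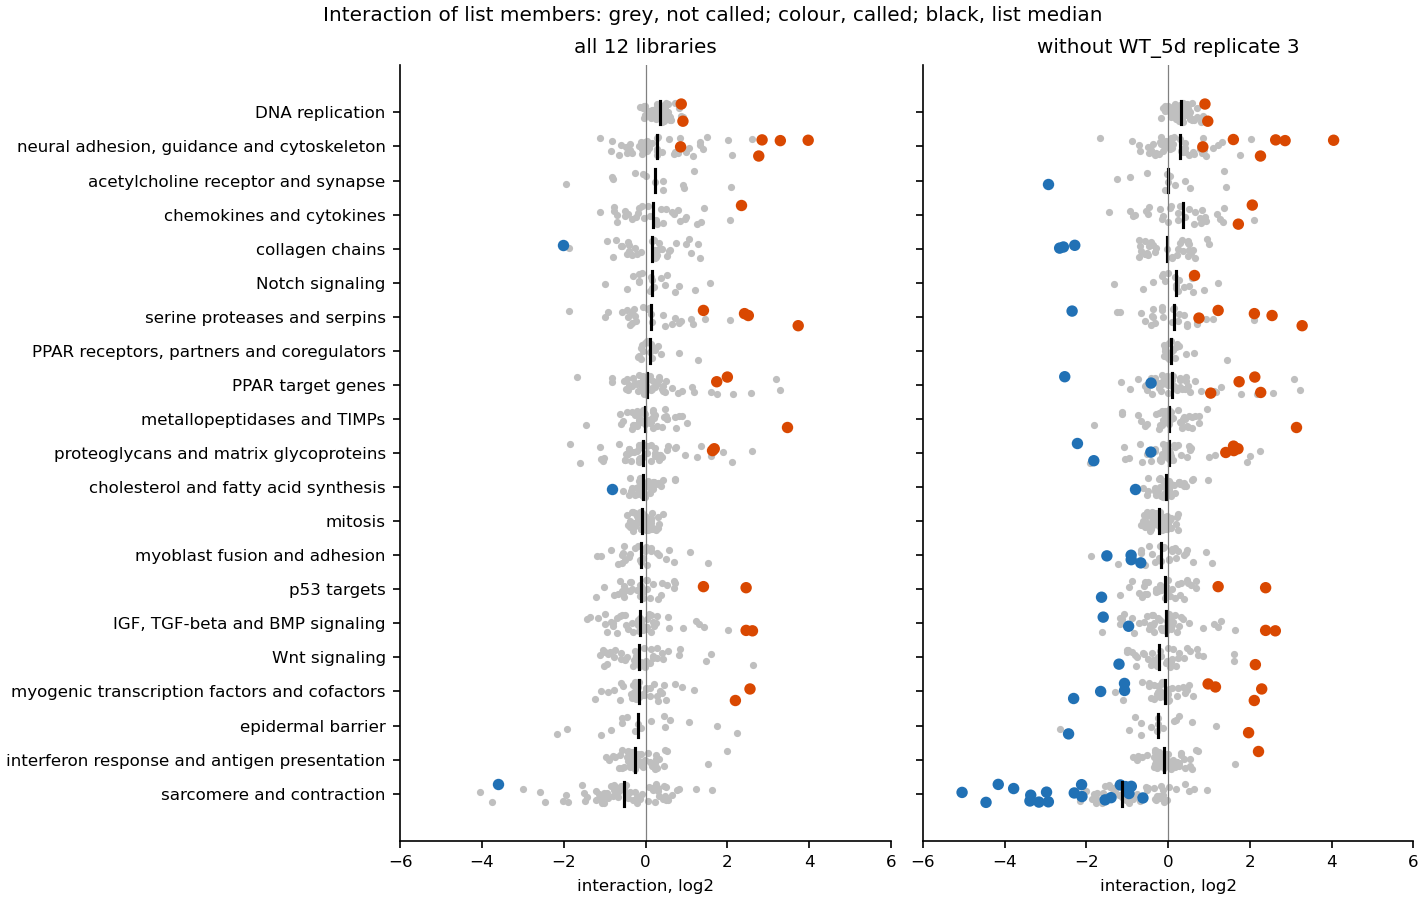
Interaction (log2, horizontal) of each member of 21 gene lists with all 12 libraries (left) and without replicate 3 of WT on 5d (right), 1 point per gene, with called genes in orange (higher) or blue (lower) and the list median as a black bar. Sarcomere genes move left, from 1 to 19 called lower, while the called neural genes all lie on the right in both panels.

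**Figure D5:**
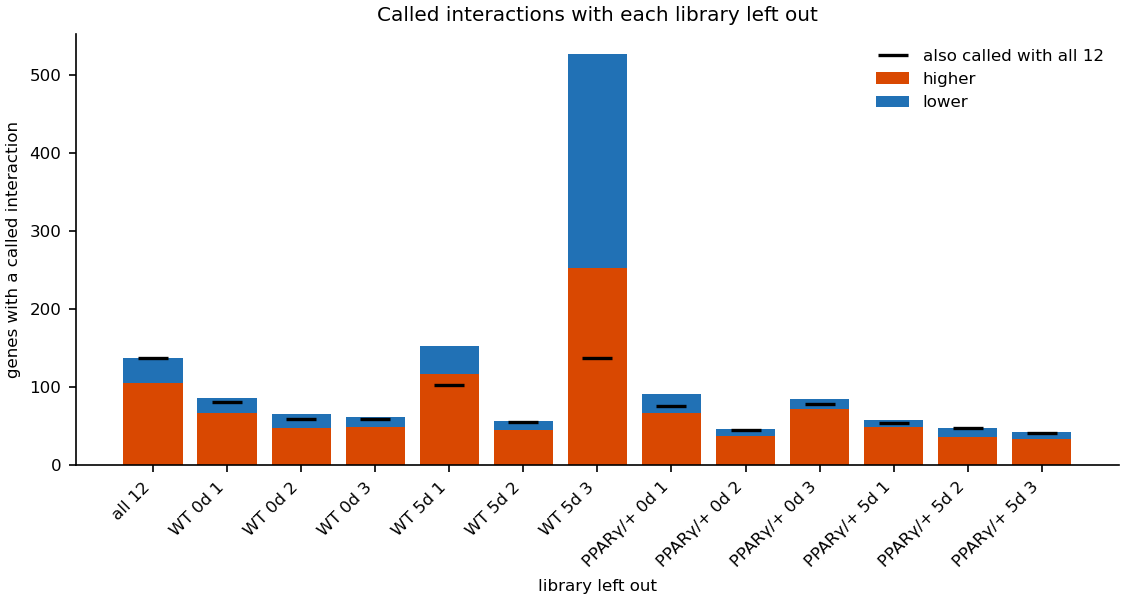
Number of genes with a called interaction with all 12 libraries and with each library left out (bars, orange higher and blue lower), and the number of these also called with all 12 (black marks). The bar without replicate 3 of WT on 5d reaches 527, against 42 to 153 for the others.

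By type, 114 of the 137 genes were protein coding (83.2%, against 74.0% of the genes tested). Expression ranged widely, with 58 genes at 10 FPKM or more in at least 1 group and 24 under 1 FPKM in every group. At least 1 group lay at or under 3 fragments in every library for 31 genes, and for these the direction rests on few fragments on 1 side. The calls included 9 small RNA genes, none with more than 6 fragments in a library. Of the 137 calls, 25 held in every alternative in which the gene was tested, among them Acsbg1, Igfbp2, Myf5, Ngfr, Stmn4, Creb5, Fabp5 and Serpinb9b. For Ngfr, with PPARγ/+ cells at 0, the call reflects the WT fall alone.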

How the data were processed

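RNA of 12 libraries, 3 of each of WT and PPARγ/+ C2C12 cells on 0d and 5d, was sequenced. The authors used Trim Galore for trimming, STAR for alignment and HTSeq for gene counts, and deposited FPKM per gene, which was analysed here. The authors also deposited a log2 table equal to log2(FPKM + 1) and their own DESeq2 comparisons, whose fold changes and p-values were not used. Their methods name the Ensembl annotation of GRCm38, whereas the submitters' processing notes name mm9. Coordinates given here are those of GENCODE M21 on GRCm38, matched by Ensembl identifier.

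Groups followed the sample titles. All 12 libraries entered 1 limma fit (version 3.58.1, R 4.3.3) with trend on log2(FPKM + 0.1), for 18023 genes with at least 0.1 FPKM in at least 3 libraries, with Benjamini-Hochberg adjustment over all of them. Fold changes on this scale understate the change of low genes. FPKM gave whole fragments for all 27138 expressed genes, within 0.0001, when multiplied by gene length and the study's mapped read totals. The 21030 genes with an annotated length test this. For the other 6108 the length was inferred so that fragments are whole, and these do not. The depth was 15557940 to 22013355 fragments (median 18737061), and 3 fragments was the floor below which no level is read. Floors cover counting error only. On simulated data with 200 changed genes of 18023, the fit recovered 71% at a log2 size of 1 and 91% at 2. It also called 8 unchanged genes. These shares describe the simulated data only. The changed genes were drawn only from those with a mean of at least 1 FPKM over the libraries, so recovery among lower genes was not tested. Recovery with a library that stands apart, as in these data, was not tested either.

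Genes were named by rule: Pparg, Myod1 and Myog, 11 genes singled out by the study, the 4 highest and 4 lowest interactions per class with a mean of at least 1 FPKM in a group, called members of the 21 lists, and myoblast and adipocyte markers; others are said to be picked after their values were seen. A gene that the rule names is not reported here. Members, lists and markers were chosen with earlier results of these data known. The deviations of same-numbered libraries correlated at 0.083 at most, so the replicate number was no term of the fit. The alternatives were an added value of 1 or 0.01, no filter or one at 1 FPKM, median-ratio or quantile scaling, array weights, the replicate number as a block, voom on the recovered fragments, other call rules and each library left out. Figures were drawn with matplotlib 3.10.9.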

Additional observations from a re-analysis of the deposited data

Results flagged for a closer look

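The changes of the 2 lines from 0d to 5d differed by the test of the difference itself for 137 genes (limma, adjusted p at most 0.05), which are the genes described above. Among them, 5 changed at least 2-fold in opposite directions in the 2 lines. L1cam (interaction 2.77) and Gzme (3.73) fell in WT and rose in PPARγ/+ cells. Gm14200 (-4.06), Gm22847 (-4.13) and Gm23468 (-5.20) rose in WT and fell in PPARγ/+ cells, with few fragments. No formal outlier test was run on the groups of 3 libraries. The dependence of the calls on WT replicate 3 of 5d, which stood apart, is given above.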

How the results depend on the processing

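No called interaction turned its sign under any alternative, and of 1285 refits of 62 named interactions 915 stayed on their side of the threshold, 366 lost the call and 4 gained it. The 915 include refits of named genes that had no call with all 12 libraries and stayed uncalled, such as Myod1, Myog and Pparg. The 366 lost calls come from the called genes only, so these are less stable than the pooled count. Leaving out 1 library gave 42 to 527 called interactions (33 to 253 higher, 9 to 274 lower), 180 to 491 differences on 0d, 78 to 796 on 5d, 2700 to 2980 WT and 2282 to 2586 PPARγ/+ changes, 20 to 76 genes of the 0d class, 10 to 199 of the 5d class, 1 to 18 of both days and 10 to 234 of neither, and 7 to 77 called list members. The upper ends of the interaction counts come without WT replicate 3 of 5d and the lower end of calls without PPARγ/+ replicate 3 of 5d. Array weights, which gave that WT library little weight, called 856 (467 higher, 389 lower), with 551 differences on 0d and 834 on 5d, classes of 124, 198, 24 and 510 in the same order, and 105 list members. With 1 added to the FPKM there were 120 differences on 0d, 95 on 5d, 1441 WT and 1224 PPARγ/+ changes, and classes of 26, 15, 1 and 92. With 0.01 added, the 5d class held 14, both days 2 and the lists 13. A filter at 1 FPKM, which tests fewer genes, left 18 lower interactions, 93 differences on 5d, 11 genes of the 5d class and 2 of both days. Voom on recovered fragments gave 13 lower interactions, 13 genes of the 5d class, 2 of both days and 15 list members. An unadjusted p of at most 0.05 with a 2-fold change called 747 (444 higher, 303 lower), and an adjusted p with a 2-fold change left 18 lower. Except where a filter or a rule is stricter by construction, the cause was not tested.

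With the replicate number as a block, 61 interactions were called (51 higher, 10 lower), with 26 genes of the 0d class, 11 of the 5d class, 20 of neither and 11 list members. The numbers do not pair the samples: the deviations of 18 same-numbered pairs correlated at -0.068 to 0.083 (median 0.022), none over 0.1. Low genes with a group at the floor, 31 of the 137, are those whose size the depth limits.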
